A study of Homo sapiens with 124 samples.

Results

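The 4 human HOX clusters and the 2 Mb of chromosome on either side of each were followed for contact with the nuclear lamina in 118 single cells. The loci were taken as every 100 kb bin of the deposited table (hg19) that overlapped a cluster or its flanks: HOXA on chromosome 7 up to HOXA13, HOXB on chromosome 17 from HOXB1 to HOXB13, HOXC on chromosome 12 from HOXC13 to HOXC4, and HOXD on chromosome 2 from HOXD13 to HOXD1. This choice used position alone and gave 169 of the 30376 bins of the table. Of these, 168 were among the 26426 usable bins, meaning that no cell lacked a number there and that some cell had reads. The bin that was not usable lay in the flank of HOXB at lower coordinates, which therefore held 19 bins. Each of the other 7 flanks held 20 bins, and the clusters held 2 bins at HOXA, HOXC and HOXD and 3 at HOXB. Bins at the edge of a cluster can reach beyond it, so cluster contact below can include sequence beside the cluster. In what follows the flank at lower coordinates is called the low flank and that at higher coordinates the high flank.

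HOX genes encode homeodomain transcription factors that give cells their position along the body axis, and their order along each cluster follows the order of the body regions in which they act. The 4 clusters descend from a single ancestral cluster by duplication, so that genes with the same number in different clusters are paralogs: HOXA13, HOXB13, HOXC13 and HOXD13 belong to the posterior end, and HOXB1 and HOXD1 to the anterior end. The nuclear lamina is the filament network under the inner nuclear membrane, and the chromosome domains that touch it are usually poor in genes and weakly transcribed. HOXD is known for lying between regulatory gene deserts, which hold enhancers for its genes in the limb and other tissues.

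The cells belonged to KBM7, a chronic myeloid leukaemia line with a near-haploid genome, and were all from the haploid (1N) clone 14 and all carrying Dam fused to LaminB1. They made up a single group, so no condition was compared. Dam activity was induced with 0.5 nM Shield1, a ligand that stabilises a tagged protein, for 15 h, and the smallest 2% of the cells that were positive for both Fucci cell cycle markers were sorted one by one. The labels name 124 such cells, of which 118 had a column in the table and 6 were not analysed here. A single clone was sampled, and no cultures are named in the labels, so that the tests below take cells as units and measure only the spread between these cells.

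In DamID, the adenine methylase Dam marks GATC sequences near its fusion partner, and the marked fragments are cut by DpnI, amplified and sequenced. The deposited value of a bin is its observed over its expected reads in that cell, and a value of 1 or more was taken as contact. A cell showed contact in 33.0% ± 5.47 (SD, n = 118) of its usable bins, with a range from 18.3% to 42.3%. Read numbers recovered from the ratios ran from 28372 to 385661 per cell with a median of 135782.5. A value of 1 in the median bin therefore stood for 1.18 reads in the shallowest cell, 5.69 in the median cell and 16.0 in the deepest, and in 14 cells it stood for under 3. Cells numbered 1 to 94 (n = 90) and 96 to 124 (n = 28) differed in depth, with medians of 133746.5 and 161506 reads, and in contact, with means of 31.9% and 36.5% of usable bins. The labels do not say what the numbers stand for. Values for both sets of numbers are given where they matter, and the part of depth and numbering in the results was not tested.

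GATC is the only sequence at which the assay can read a bin, and the promoters of the cluster ends differed in whether they held it. Of the 7 named genes, 5 had a RefSeq window (GRCh38.p14) of the 250 bases before the start: HOXA13, HOXB1, HOXC4, HOXD1 and HOXD13. The windows of HOXA13, HOXB1 and HOXC4 held 1 GATC each, and those of HOXD1 and HOXD13 held 0. GATC, which reads the same on both strands, occurred in 35.8% of all 35116 windows of that length in the table. The promoters from both ends of HOXD, the cluster with the most contact, are shown with that of HOXA13, whose end of HOXA held the single contact of that cluster; capitals mark GATC.
HOXD13 promoter, GRCh38.p14 chr2:176092471-176092720, plus strand: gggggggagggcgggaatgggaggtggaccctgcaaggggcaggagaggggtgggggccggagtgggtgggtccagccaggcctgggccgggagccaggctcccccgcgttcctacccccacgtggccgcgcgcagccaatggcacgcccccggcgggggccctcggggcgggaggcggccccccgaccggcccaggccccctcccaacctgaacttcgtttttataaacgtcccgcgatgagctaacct
HOXD1 promoter, GRCh38.p14 chr2:176188418-176188667, plus strand: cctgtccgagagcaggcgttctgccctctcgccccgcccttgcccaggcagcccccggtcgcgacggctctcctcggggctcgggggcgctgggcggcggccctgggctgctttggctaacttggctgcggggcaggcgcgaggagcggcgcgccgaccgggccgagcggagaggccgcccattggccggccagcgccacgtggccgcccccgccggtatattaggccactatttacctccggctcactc
HOXA13 promoter, GRCh38.p14 chr7:27200092-27200341, minus strand: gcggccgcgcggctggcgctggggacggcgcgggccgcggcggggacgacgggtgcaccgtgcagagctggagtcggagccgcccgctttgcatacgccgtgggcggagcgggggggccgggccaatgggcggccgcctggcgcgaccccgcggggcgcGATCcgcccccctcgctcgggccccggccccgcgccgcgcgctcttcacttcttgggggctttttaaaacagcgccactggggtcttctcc
The window of HOXA13 held 40 CpG dinucleotides at a GC content of 78%, that of HOXD1 held 31 at 74.8% and that of HOXD13 held 21 at 74%, against medians of 11 and 58% over all windows. HOXB1, with 7 CpG at 57.2% GC, and HOXC4, with 14 at 50.8%, lay nearer those medians. The letters within 250 bases say nothing about the rest of a 100 kb bin.

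HOXA, HOXB and HOXC also carry the genes of the miR-196 family, microRNAs that act on HOX transcripts. RefSeq places MIR196B in HOXA, MIR196A1 in HOXB and MIR196A2 in HOXC. No relation between these genes and lamina contact was tested. The mature sequences below share the seed of bases 2 to 8, in capitals.
hsa-miR-196a-5p: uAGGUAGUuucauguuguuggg
hsa-miR-196b-5p: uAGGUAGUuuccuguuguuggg
Both have 22 bases and differ only by A12C, written from miR-196a-5p to miR-196b-5p with positions counted from the 5′ end.

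The 4 loci fell into 3 kinds of profile. HOXB lay in a region whose bins were each in contact in 1 cell or none, HOXA and HOXC lay in regions of infrequent contact that ended on at least 1 side within 2 Mb, and HOXD lay as a notch between stretches that touched the lamina in about as many cells as not. Of the 168 bins, 75 (44.6%) were in contact in no cell, where 22.3% of all usable bins were. Contact in at most 5% of cells was found for 103 bins (61.3%, against 38.8% of all usable bins). Contact in 20 to under 80% of cells was found for 45 bins (26.8%, against 33.9%), and in at least 50% of cells for 21 (12.5%, against 35.4%). None of the 168 bins was in contact in at least 80% of cells, a class that held 15.1% of all usable bins. The bins were unevenly spread: HOXB supplied 38 of the 75 bins without contact and HOXD 16 of the 21 bins at 50% or more.

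**Figure D1:**
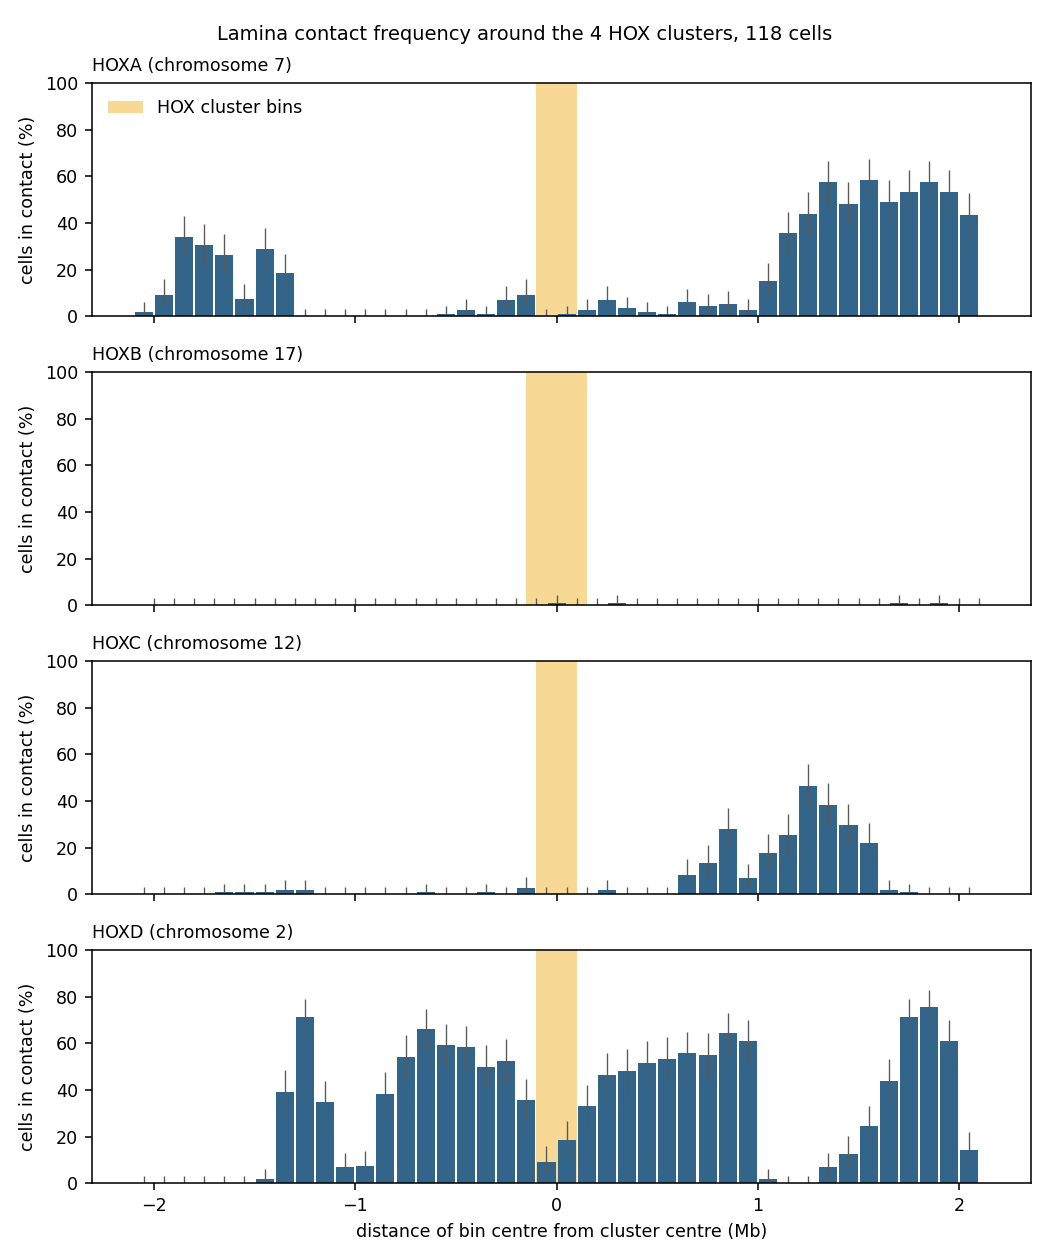
Percent of 118 cells in which each 100 kb bin was in contact (bars, with 95% exact binomial intervals) by the distance of the bin centre from the centre of its HOX cluster (Mb), with the cluster bins shaded. HOXD is flanked on both sides by bins above 30%, HOXA reaches 20% no nearer than 1 Mb and HOXC no nearer than 0.7 Mb, and HOXB stays at 1 cell or none throughout.

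Within the clusters, nearly every contact was at HOXD. HOXA is split by the table at position 27200001 of chromosome 7. The bin from 27100001 to 27200000 was in contact in 0 of 118 cells, which allows a share of up to 2.54%, and the bin from 27200001 to 27300000, with the HOXA13 end, in 1 of 118 cells (0.847%, 95% exact binomial interval 0.0214 to 4.63). That contact was in cell 4, at a ratio of 1.15 from 2 reads in a library of 31503 reads. HOXB is covered by 3 bins of chromosome 17 from 46600001 to 46900000. Its first bin, with the HOXB1 end, and its last, with the HOXB13 end, were in contact in 0 cells each. The middle bin from 46700001 to 46800000 was in contact in cell 49 alone, at a ratio of 1.57 from 2 reads in a library of 29049 reads. Both HOXC bins, from 54300001 to 54500000 on chromosome 12 and holding the HOXC13 end and the HOXC4 end, were in contact in 0 of 118 cells. The single contacts of HOXA and HOXB thus came from shallow libraries, where 2 reads were enough for a ratio above 1.

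HOXD, in contrast, was in contact in 27 cells. Both of its bins reach beyond the cluster, so contact in them cannot be assigned to the HOX genes themselves. The HOXD bin from 176900001 to 177000000 on chromosome 2, with the HOXD13 end, was in contact in 11 of 118 cells (9.32%, interval 4.75 to 16.1). The HOXD bin from 177000001 to 177100000, with the HOXD1 end, was in contact in 22 of 118 cells (18.6%, interval 12.1 to 26.9). The ends were not tested against each other, and with each cell thinned to 50000 reads (109 cells) both were in contact in 12.8% of cells. The 27 cells were made up of 5 with the HOXD13 end only, 16 with the HOXD1 end only and 6 with both. The ratio of the HOXD13 end ran from 0 through a median of 0.303 to 2.06 with a mean of 0.396 ± 0.425 (SD, n = 118). That of the HOXD1 end ran from 0 through 0.382 to 2.42 with a mean of 0.490 ± 0.543. The contacts of the HOXD13 end had a median ratio of 1.18 and those of the HOXD1 end 1.31, so most lay not far above the contact value of 1. Highest at the HOXD13 end was cell 122, at 2.06 from 21 reads, and highest at the HOXD1 end was cell 124, at 2.42 from 18 reads. The HOXD13 end was in contact in 4.44% of cells 1 to 94 and 25% of cells 96 to 124, and the HOXD1 end in 15.6% and 28.6%.

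Below the contact value the clusters differed too. The HOXD13 end had no read in 36 cells and the HOXD1 end in 41, whereas the 7 bins of the other clusters had none in 84 to 109 cells. The mean ratio per cell was 0.443 ± 0.414 over HOXD, 0.0868 ± 0.141 over HOXA, 0.0349 ± 0.0828 over HOXB and 0.0204 ± 0.0590 over HOXC (SD, n = 118). Per cell, 14.0% ± 27.6 of the HOXD bins were in contact, against means of 0.424% at HOXA and 0.282% at HOXB, each from 1 cell, and 0% at HOXC. HOXD was higher than HOXA in 27 cells and lower in 1, a difference of 13.6 percentage points. It was higher than HOXB in 27 cells and lower in 1, and higher than HOXC in 27 cells and lower in none. Each of these 3 differences had an adjusted p of 4e-05 (two-sided sign-flip permutation test of the paired values, 100000 resamples, Benjamini-Hochberg over 6 cluster pairs), from a p of 2e-05, the smallest these resamples can give. HOXC had no contact in any cell, and HOXA and HOXB had it in 1 cell each. In all other cells HOXD minus these clusters could only be 0 or positive. These p-values therefore show little beyond HOXD having contact in some cells. With a contact value of 2, HOXD kept contact in 3 cells only and the 3 differences did not pass (adjusted p = 0.501). The pairs among HOXA, HOXB and HOXC did not pass, at adjusted p = 1 each. With the mean ratio in place of contact, however, HOXA was higher than HOXB by 0.0519 (adjusted p = 4.8e-05) and higher than HOXC by 0.0664 (adjusted p = 3e-05). With a contact value of 0.5 all 3 pairs passed, HOXA above HOXB (adjusted p = 0.00931), HOXA above HOXC (0.00144) and HOXB above HOXC (0.0299). In 89 of 118 cells (75.4%) none of the 4 clusters was in contact.

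**Figure D2:**
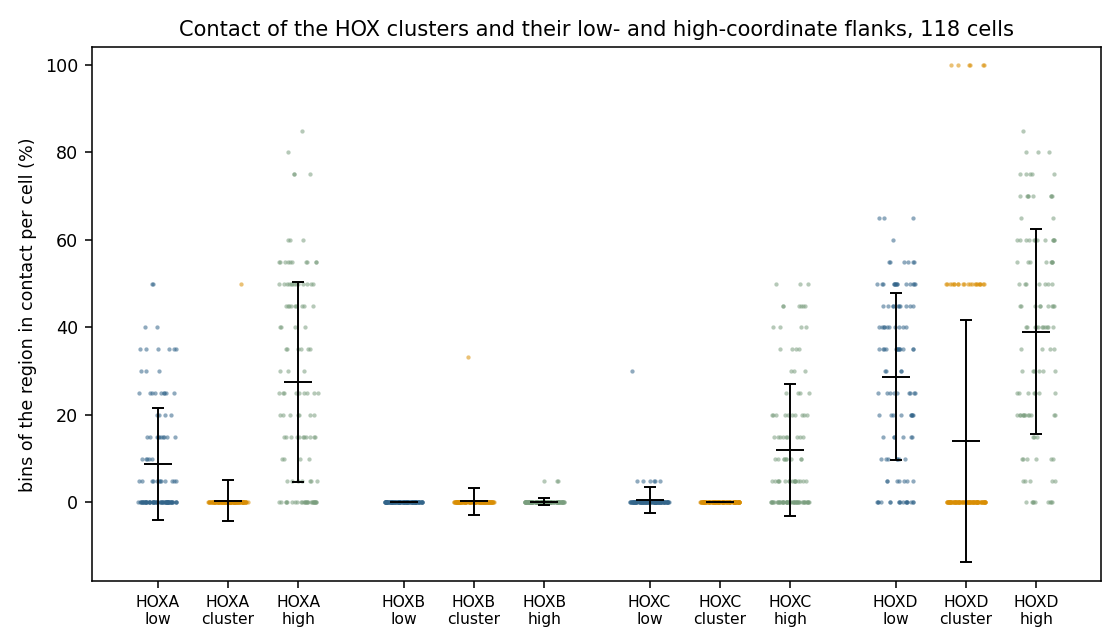
Percent of the bins of each low flank, cluster and high flank in contact in each of 118 cells (points, spread sideways at random), with the mean and SD over cells (black). The HOXA, HOXB and HOXC clusters sit at 0 except for 1 cell each at HOXA and HOXB, while 27 cells have contact in the HOXD cluster.

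The HOXD cluster was less in contact than its own flanks. In each cell the flanks had contact in 0 to 70% of their bins, with a median of 35% and a mean of 33.9% ± 19.7 (SD, n = 118). The cluster was lower by 19.9 percentage points ± 24.7, lower in 92 cells, higher in 18 and equal in 8 (adjusted p = 2.33e-05, the same test over 14 comparisons). The size of this difference moved with the settings: cluster minus flanks was -9.00 points with a contact value of 0.5 (lower in 78 cells, higher in 35, adjusted p = 0.00142) and -31.0 points with flanks of 1 Mb (adjusted p = 3.5e-05). At a value of 0.5 the cluster stood at 38.1% of its bins, against 40.0% in the low flank. The dip at the cluster was graded. The bin before the cluster, from 176800001 to 176900000, was in contact in 35.6% of cells. The bin after the cluster, from 177100001 to 177200000, was in contact in 33.1%. The interval of that bin (24.7 to 42.3) overlapped that of the HOXD1 end (12.1 to 26.9). Farther from the cluster the frequencies were higher on both sides, up to 66.1% in the bin from 176300001 to 176400000 and 64.4% in the bin from 177800001 to 177900000.

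Both sides of HOXD were long stretches of contact broken by gaps. A stretch here is a series of at least 2 consecutive bins that were each in contact in 20% of cells or more. The first stretch below the cluster ran from 176100001 to 176900000 (0.8 Mb) and ended at the cluster, and a cell had on average 51.8% ± 36.4 (SD, n = 118) of it in contact. The first stretch above it ran from 177100001 to 178000000 (0.9 Mb) and began at the cluster, at 52.2% ± 36.8. Farther out, a stretch from 175600001 to 175900000 stood at 48.3% ± 34.8 and one from 178500001 to 179000000 at 55.2% ± 31.6. The outer stretch above the cluster held the bin with the most contact of all 168, from 178800001 to 178900000, at 75.4% of cells. Between the stretches contact was less frequent. The 5 bins from 178000001 to 178500000 were in contact in 1.69%, 0%, 0%, 6.78% and 12.7% of cells, and the bins from 175900001 to 176100000 in 6.78% and 7.63%. The outermost 6 bins of the low flank, from 174900001 to 175500000, were in contact in 0 of 118 cells.

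The stretches beside HOXD were neither always nor never at the lamina. The low one had no contact in 24 cells, contact in up to 50% of its bins in 37 and in over 50% in 57, of which 17 had contact throughout. The high one had no contact in 22 cells, up to 50% in 34 and over 50% in 62, of which 17 had contact throughout. Over the whole flanks, the high flank exceeded the low one, with 39.1% ± 23.3 against 28.8% ± 19.1 of bins. The low flank was lower by 10.3 percentage points ± 16.5, lower in 79 cells, higher in 22 and equal in 17 (adjusted p = 2.33e-05). Within 1 Mb of the cluster the low minus high difference was -4.24 points and did not pass (adjusted p = 0.0543). The low flank held the 6 outermost bins without contact and the high flank did not.

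The contact of both sides of HOXD varied together from cell to cell. The low and high flanks had a Pearson r of 0.715 and a Spearman rho of 0.717 over 118 cells, and an r of 0.702 without the 2 cells farthest from the median. The stretches that meet at the cluster had an r of 0.772 and a rho of 0.763, although the cluster lies between them. The outer and inner stretches of the low side had an r of 0.629, those of the high side 0.462, and the outermost pair 0.315. Values of 1 cell share its depth and its overall contact, and after the contact share of each cell was taken out the r across the cluster was 0.746. Cells 1 to 94 alone gave 0.744 and cells 96 to 124 alone gave 0.816. These are descriptions of the 118 cells, with no test.

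**Figure D3:**
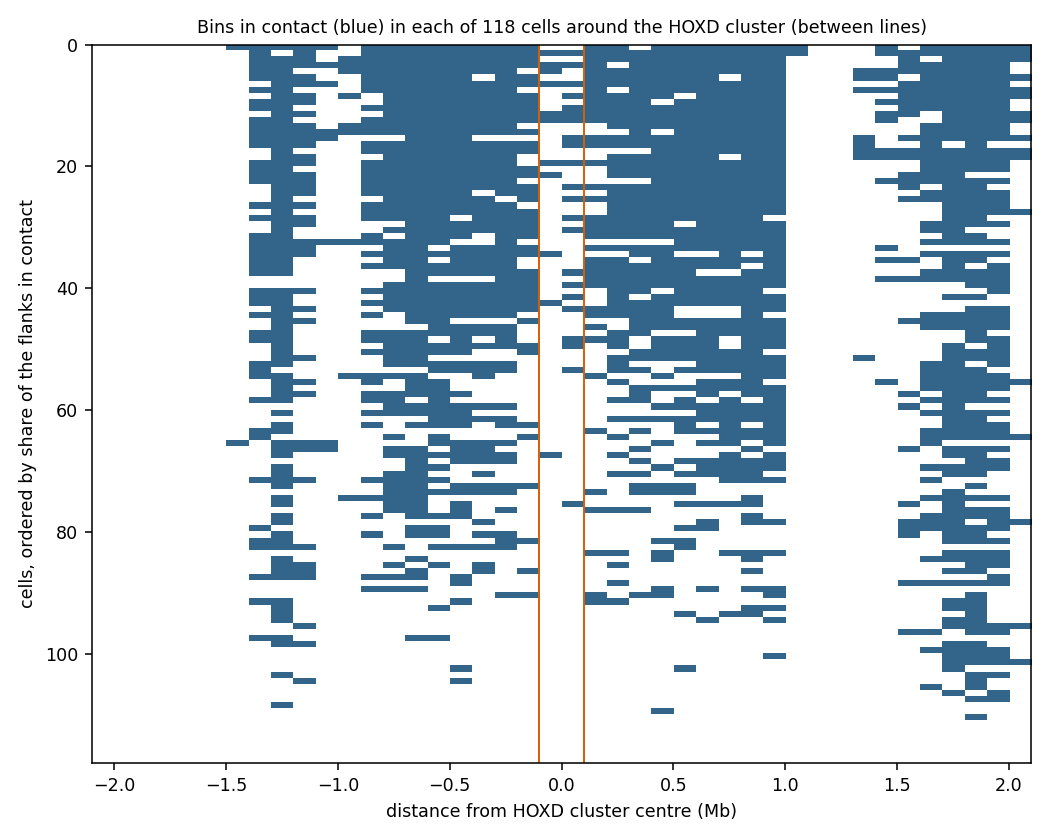
Bins in contact (blue) around HOXD in each of 118 cells (rows, ordered by the share of the flanks in contact) by distance from the cluster centre (Mb), with the cluster between the vertical lines. Contact appears in blocks on either side of the cluster, mostly in the upper rows, and the cluster stays without contact in 91 cells.

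The HOXD cluster was in contact mainly in cells whose adjoining stretches were both largely in contact. Both stretches had over 50% of their bins in contact in 48 cells. In these the HOXD13 end was in contact in 9 (18.8%, 95% exact binomial interval 8.95 to 32.6), the HOXD1 end in 19 (39.6%, interval 25.8 to 54.7) and either in 22 (45.8%). Neither stretch passed 50% in 47 cells, and there the HOXD13 end was in contact in 0 and the HOXD1 end in 1 (2.13%). That contact, in cell 43, came from 2 reads in a library of 28372 reads, the shallowest of all. In the 9 cells with the low stretch alone above 50%, 2 had contact at the HOXD13 end and 0 at the HOXD1 end. In the 14 with the high stretch alone, 0 had contact at the HOXD13 end and 2 at the HOXD1 end. These 4 contacts lay in the end bin next to the stretch in contact, and each end bin also holds sequence outside the cluster. The 48 cells with both stretches had a median of 149248 reads and 19 of them were among cells 96 to 124, while the 47 with neither had a median of 109260 and 7. The part of depth in these shares was not tested.

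**Figure D4:**
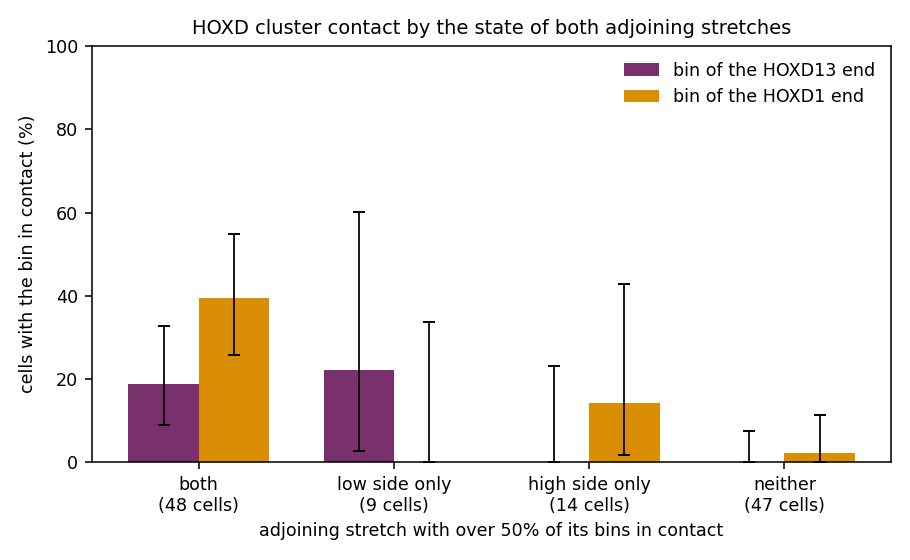
Percent of cells with the HOXD13 end or the HOXD1 end of the cluster in contact (bars, with 95% exact binomial intervals), for cells grouped by which adjoining stretches had over 50% of their bins in contact. The HOXD1 end reaches 39.6% in the 48 cells with both stretches and 2.13% in the 47 cells with neither.

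Contact on both sides did not always include the cluster. In 24 cells both bins next to it were in contact, and among these both cluster bins were in contact in 5, exactly 1 in 10 and none in 9 (37.5%, interval 18.8 to 59.4). This last share was 47.1% of 17 cells numbered 1 to 94 and 14.3% of 7 cells numbered 96 to 124. It was 6.12% of 49 cells at a contact value of 0.5, 66.7% of 3 cells at a value of 2 and 56.0% of 25 cells after thinning to 50000 reads. In 61 cells neither neighbouring bin was in contact, and 3 of these had contact in the cluster. Series of bins in contact that began at the cluster had a median length of 0.7 Mb on the low side (42 cells) and 0.6 Mb on the high side (39 cells), and the longest were 1.3 Mb and 1 Mb. Among the cells with contact in the flank (101 on the low side, 109 on the high side), the nearest contact lay at a median of 0.2 Mb on either side. The bin next to the cluster was counted here as 0.1 Mb. It lay within 0.5 Mb in 90 cells on the low side and 87 on the high side. A total of 7 cells had no contact anywhere in the HOXD locus.

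HOXA lay in a wide gap. From the cluster, the first bin in contact in 20% of cells or more was 1.3 Mb away on the low side and 1 Mb away on the high side. The high flank ended in a stretch from 28300001 to 29300000 of chromosome 7 that reached its outer edge, with a mean contact of 50.1% ± 39.4 (SD, n = 118) per cell and up to 58.5% of cells in the bin from 28700001 to 28800000. The low flank held a shorter one from 25300001 to 25600000 at 30.2% ± 42.0. In between, the 7 bins from 25900001 to 26600000 were in contact in 0 of 118 cells. Nearer the cluster, contact was infrequent rather than absent. The bins next to it were in contact in 11 cells (9.32%) on the low side, from 27000001 to 27100000, and in 3 (2.54%) on the high side, from 27300001 to 27400000. The bin after that, from 27400001 to 27500000, was in contact in 8 cells (6.78%).

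The HOXA flanks differed from each other and from the cluster. The low flank was in contact in 0 to 50% of its bins with a mean of 8.86% ± 12.8, and in 65 cells not at all. The high flank ran from 0 to 85% with a mean of 27.5% ± 22.9, and 27 cells had none. The low flank was lower by 18.6 percentage points ± 17.8, lower in 87 cells, higher in 9 and equal in 22 (adjusted p = 2.33e-05). The cluster was lower than its flanks by 17.7 points ± 17.0, lower in 97 cells, higher in 1 and equal in 20 (adjusted p = 2.33e-05). With flanks of 1 Mb both differences were far smaller, at -2.80 points between the flanks (adjusted p = 0.003) and -3.01 for the cluster (lower in 29 cells, adjusted p = 0.000342). The HOXA cluster had contact in 1 cell only, so in every other cell its difference from the flanks could only be 0 or negative. Across cells the low and high flanks had a Pearson r of 0.631 and a rho of 0.561 (n = 118), and 0.568 after the contact share of each cell was taken out. Cells 96 to 124 had a mean of 17.1% in the low flank and 40.5% in the high flank, against 6.28% and 23.4% in cells 1 to 94, a difference that was not tested. The low flank was below the high flank within each set of cells, by 17.1 points in cells 1 to 94 and 23.4 in cells 96 to 124.

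HOXC had its contact on 1 side. All 20 bins of the low flank were in contact in at most 5% of cells, and the flank as a whole had a mean of 0.508% ± 2.95 of bins in contact (SD, n = 118). Contact there was found in 7 cells, of which cell 119 stood apart with 30% of the bins. The high flank had a mean of 12.0% ± 15.0, from 0 to 50%, with none in 49 cells. Its first 5 bins beyond the cluster were at most at 1.69% of cells, followed by a peak of 28.0% of cells in the bin from 55200001 to 55300000 and a stretch from 55500001 to 56000000 at 32.4% ± 36.5, highest in the bin from 55600001 to 55700000 with 55 of 118 cells. From 56000001 the frequency was at most 1.69% again. The low flank was lower by 11.5 percentage points ± 14.3, lower in 69 cells and equal in 49 (adjusted p = 2.33e-05). The cluster was lower than its flanks by 6.27 points ± 8.15, in the same counts of cells (adjusted p = 2.33e-05). With flanks of 1 Mb these were -7.20 and -4.03 points (adjusted p = 3.5e-05 each). The HOXC cluster had no contact in any of 118 cells, so cluster minus flanks could only be 0 or negative. Its p does not set the cluster apart from the low flank or the first 5 bins of the high flank, where contact was also rare. Of the 7 stretches, that of HOXC alone had a lower mean in cells 96 to 124 (24.3%) than in cells 1 to 94 (34.9%), which was not tested.

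**Figure D5:**
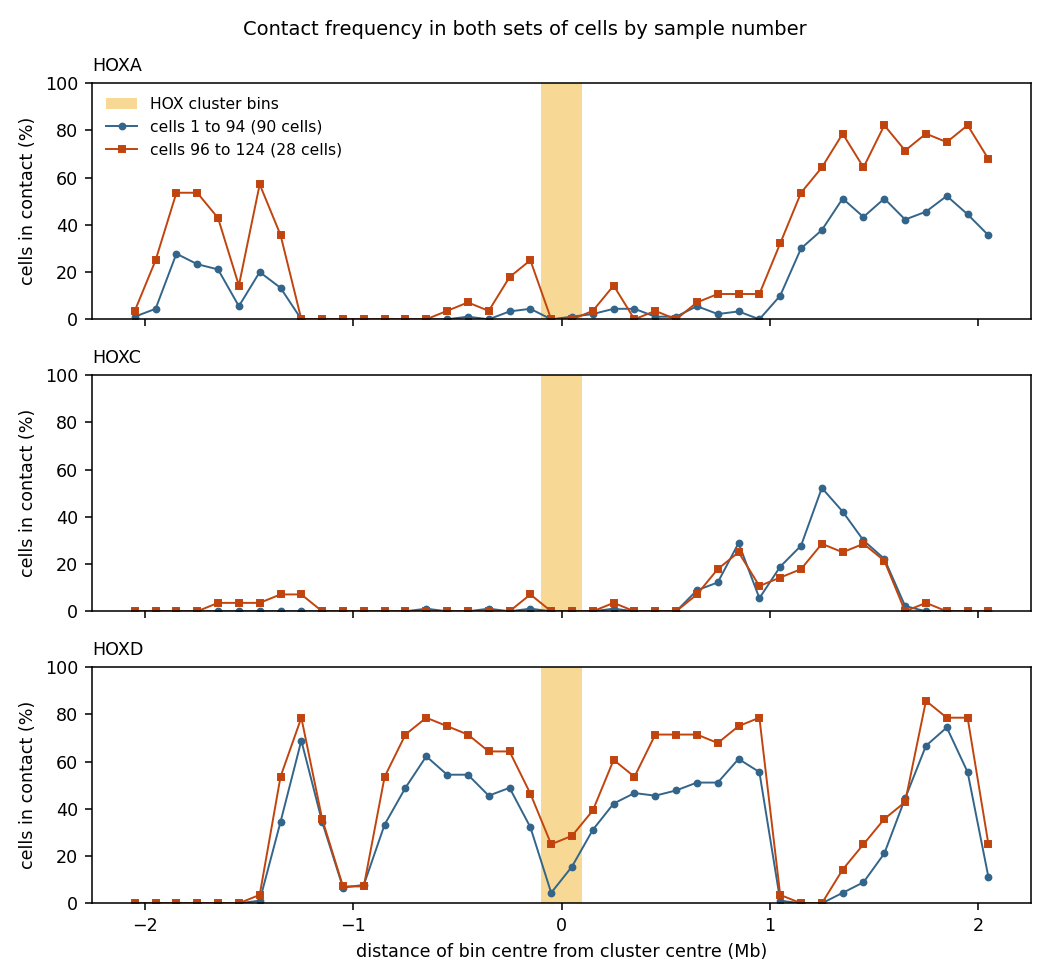
Percent of cells in contact per 100 kb bin around HOXA, HOXC and HOXD by distance from the cluster centre (Mb), for cells numbered 1 to 94 (n = 90, circles) and 96 to 124 (n = 28, squares), with the cluster bins shaded. At HOXA the cells numbered 96 to 124 are higher, at 71.8% against 43.3% of the bins of the high stretch. They are also higher in the stretches beside HOXD, at 65.6% against 47.5% below the cluster and 65.5% against 48.0% above it. In the HOXC stretch they are lower, at 24.3% against 34.9%.

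HOXB was the barest of the 4 loci. Of its 42 usable bins, 38 were in contact in no cell and all were in contact in at most 5% of cells. The low flank had no contact in any of 118 cells over 19 bins. Some of these bins may have been able to yield few reads only. In the median cell a value of 1 stood for 0.785 reads from 44700001 to 44800000 and 1.11 reads from 45500001 to 45600000. Those bins had 1 and 3 recovered reads over all cells. The recovery takes the fewest reads that make the values of a bin whole, so these numbers are lower limits. The high flank had contact in 3 cells, 1 bin each, which made a mean of 0.127% ± 0.790 (SD, n = 118). Neither the difference between the flanks, 0.127 points (adjusted p = 0.27), nor that between the cluster and the flanks, 0.217 points (adjusted p = 0.997), passed. When each cell was thinned to 50000 reads (109 cells), the cluster was the lower, at -0.612 points, in 13 cells and higher in 0 (adjusted p = 0.00028). After thinning the cluster stood at 0% in all of these cells, so the difference could only be 0 or negative. The low flank then stood at 0.531%, against 0% at full depth. In 114 cells the whole locus was without contact. Chromosome 17 as a whole had contact in 9.45% ± 5.26 of its usable bins, against 35.9% ± 8.65 for chromosome 7, 30.2% ± 8.85 for chromosome 12 and 34.9% ± 7.29 for chromosome 2. No test was made between a locus and its chromosome.

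Taking both flanks together, the loci ranked HOXD, HOXA, HOXC and HOXB, with 33.9% ± 19.7, 18.2% ± 16.3, 6.27% ± 8.15 and 0.0652% ± 0.405 of bins in contact per cell (SD, n = 118). Neighbours in that order differed. The difference of HOXA minus HOXD was -15.8 points ± 22.4 (lower in 89 cells, higher in 25). HOXA minus HOXC was 11.9 ± 17.0 (higher in 82, lower in 23), and HOXB minus HOXC was -6.21 ± 8.19 (lower in 69, higher in 2). All 6 pairs of flanks passed at an adjusted p of 2.33e-05. The HOXB flanks had contact in 3 cells only, so in all other cells a difference from them could not favour HOXB. With flanks of 1 Mb the order of HOXA and HOXC was not resolved: HOXA minus HOXC was -0.593 points (adjusted p = 0.69). The stretches of HOXA begin 1 Mb or more from it.

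Between loci the flanks were more weakly related than within HOXA or HOXD. The Pearson r over 118 cells was 0.237 between HOXA and HOXD, 0.157 between HOXA and HOXC and 0.0470 between HOXC and HOXD. After the contact share of each cell was taken out, the first of these was 0.0598. The flanks followed the contact share of the cell, with an r of 0.469 at HOXA, 0.256 at HOXC and 0.401 at HOXD, and the recovered reads, with 0.382, 0.208 and 0.296. Within 1 locus the r between flanks was larger, up to the 0.715 of HOXD, but the flanks of different loci also lie on different chromosomes.

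The genes beside the clusters are paralogs as well. In RefSeq (GRCh38.p14), going outward, EVX1 follows HOXA on its high side and EVX2 precedes HOXD on its low side, both homeobox genes. A gene for a heterochromatin protein of the CBX family lies beside HOXA (CBX3), HOXB (CBX1) and HOXC (CBX5), and a gene for an NFE2 family transcription factor lies beside each of the 4 clusters: NFE2L3 at HOXA, NFE2L1 at HOXB, NFE2 at HOXC and NFE2L2 at HOXD. NFE2L3 is on the low side of HOXA and NFE2L1 on the low side of HOXB. NFE2 lies on the high side of HOXC and NFE2L2 on the high side of HOXD. These genes were not placed in bins, because no annotation of hg19 was used here, and no contact value is given for any of them.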

How the data were processed

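Dam-LaminB1 contacts were read from a deposited table of observed over expected ratios in 100 kb bins, 1 column for each of 118 cells. Per the submitters' processing notes, cutadapt, Bowtie2 2.1.0 and the build hg19 were used; neither their settings nor how the authors formed the expected part of the deposited ratio is given in the sources used here. DamID of unfused Dam was not used here. Ratios were whole multiples of 1 read per bin for 100% of the 1697706 values above 0 (tolerance 0.02), which gave the reads per cell. A bin at a ratio of 1 or more was called in contact, and the percent of usable bins in contact was taken per cell and region. Paired values were compared with two-sided sign-flip permutation tests (100000 resamples) and Benjamini-Hochberg adjustment, called at 0.05. The test was tried on simulated data with normal differences, which lack the many zeros of the values here. Intervals are exact binomial (Clopper-Pearson, 95%), the limit for a count of 0 is 3 counts, and both cover counting error only; reads carry no molecular identifiers. Each cell is 1 unit of the single group. The members and gene lists were chosen with earlier results of these data known. The rule for named genes took the 7 HOX genes at the cluster ends, and neighbours by name and order only. The 6 cluster pairs, the correlations of flanks, the HOXD bin shares, the states of the stretches and the counts of bins by frequency were added after the values were seen. Contact values of 0.5 and 2, each set of cell numbers, 50000 reads per cell, deeper cells, other flanks, the mean ratio and all bins were tried as alternatives. Python 3.11.15, numpy 2.4.6, scipy 1.17.1, pandas 2.3.3 and matplotlib 3.10.9 were used.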

Additional observations from a re-analysis of the deposited data

How the results depend on the processing

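Of 200 recomputed values of the 20 comparisons under 10 alternatives, 186 neither changed sign nor crossed the threshold, values of exactly 0 included. Part of these values could not change. The cluster pairs use no flank bins, so other flanks left them as they were. Taking all bins with a number added only a HOXB bin without reads. With a contact value of 0.5, the difference of the HOXB flanks turned to 0.321 points, not past the threshold (adjusted p = 0.23). The HOXA cluster exceeded HOXB by 3.39 and HOXC by 5.08 points, and HOXB exceeded HOXC by 1.69, these 3 past the threshold. The HOXA cluster then stood at 5.08%, the HOXB low flank at 1.34% and its high flank at 1.02%, with 20 bins in contact in no cell, 36 in at least 50% of cells and 3 in at least 80%. With a value of 2, the HOXA, HOXB and HOXC clusters each differed from HOXD by -1.27 points, not past the threshold, with 0 bins in at least 50% of cells and 25 in 20 to under 80%. The HOXB differences between flanks and between cluster and flanks, and those among the HOXA, HOXB and HOXC clusters were then 0, and the low minus high differences fell in size to -9.15 at HOXA, -3.90 at HOXC and -5.04 at HOXD. In cells 96 to 124, the HOXB cluster minus its flanks was -0.183, and 33 bins were in at least 50% and 3 in at least 80% of cells. Thinned to 50000 reads (109 cells), it was -0.612 (adjusted p = 0.00028) with the cluster at 0%, the HOXB low flank stood at 0.531% and 49 bins were in contact in no cell. Without cells under 3 reads for a value of 1, it was -0.0493. With 1 Mb flanks, the HOXD flanks differed by -4.24 points, not past the threshold, and HOXA minus HOXC was -0.593. On the mean ratio, the HOXA cluster exceeded HOXB by 0.0519 and HOXC by 0.0664. The cause of these changes was not tested. At 0.5, the HOXD13 and HOXD1 ends were in contact in 36.4% and 39.8% of cells and at 2 in 0.847% and 1.69%, so their frequencies depend on the contact value.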
